A study of Mus musculus with 26 samples.

Results

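The 10 genes described here encode the integrin subunits by which stromal cells hold on to collagen, fibronectin and vitronectin, plus a related secreted protein: Itga1, Itga4, Itga5, Itga8, Itga11, Itgav, Itgb1, Itgb3, Itgb5 and Itgbl1. They were taken by symbol from the 24421 genes listed for each library, and all 10 were present and passed the low-count filter. Each of the 26 libraries held RNA of heart stromal cells that were sorted as CD45 negative, CD31 negative and Pdgfra-GFP positive and divided by SCA-1, a surface protein encoded by Ly6a. The mice were C57BL/6 animals of the line B6.129S4-Pdgfratm11(EGFP)Sor/J with the genotype PDGFRa H2BEGFP+, so all groups carried the reporter, in which nuclear GFP marks cells that express Pdgfra. Hearts were taken at day 7, 14 or 28 after the left anterior descending (LAD) coronary artery had been tied off, or were undamaged. Ages are not given in the labels, nor is a sham operation. Day 28 had 4 Sca-1 positive and 3 Sca-1 negative libraries, day 14 had 2 of each, and undamaged hearts had 5 positive and 4 negative ones. Day 7 had 1 library of each gate and 4 libraries (1A, 1B, 4A and 4B) whose titles name no gate, and these were never given one.

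Integrins are heterodimers of an alpha and a beta subunit that span the cell membrane, bind matrix outside and link through talin and kindlin to actin inside. The beta 1 chain pairs with alpha 1 and alpha 11 to bind collagen, with alpha 5 to bind fibronectin, with alpha 8 to bind nephronectin and other ligands with the RGD motif, and with alpha 4 to bind fibronectin and VCAM-1. The alpha v chain pairs with beta 1, beta 3 or beta 5 and, besides vitronectin and fibronectin, binds the latent form of TGF-beta, which it can activate by force in fibroblasts. In the injured heart, fibroblasts that deposit scar are known to use such receptors on the new matrix. Itgbl1 encodes a secreted protein with repeats like those of integrin beta chains, and is no receptor subunit.

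Levels are counts scaled to a common library total with TMM factors (CPM), from 6.79 to 48.8 M (mega) counts assigned to genes per library, so that 3 counts in a library stand for 0.0575 to 0.424 CPM. Ly6a was 279.6 to 1284 CPM in the positive and 18.8 to 91.9 CPM in the negative libraries with a gate in their titles at undamaged, day 14 and day 28. At day 7 it was 298 CPM in the labelled positive and 31.3 CPM in the labelled negative library, and 296 CPM in 1A, 35.9 CPM in 1B, 334 CPM in 4A and 31.7 CPM in 4B. The names of the deposited tables mark a gate for these 4 libraries where the labels do not, and it was not used, so that every pooled day 7 value holds both gates in proportions the labels do not give. The 5 cardiac fibroblast markers fixed for the check, Pdgfra among them, were present in every group, with sums of 45270 to 82000 CPM. Leukocyte markers (11 genes) summed to 7.46 to 45.4 CPM and platelet markers (7 genes) to 3.39 to 31.0 CPM over the 26 libraries. Endothelial markers (7 genes) summed to 104 to 329.5 CPM, cardiomyocyte markers (6 genes) to 4.48 to 43.2 CPM and Schwann markers (4 genes) to 0.683 to 6.86 CPM. The positive day 28 library E2 stood apart, with 55.8% of its counts outside genes against 5.53% to 18.7% elsewhere, and values without it are given beside the day 28 results it touches most. In such bulk RNA, fewer cells of a type and less RNA per cell cannot be told apart. Nothing in the labels ties libraries to single animals, so each p measures the spread between these libraries, which may be technical.

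Per length of exon, Itgb1 and Itgb5 had the highest levels of the 10 genes and Itga4 the lowest. In Sca-1 positive undamaged cells the order in CPM per kb of exon was Itgb1 (238 ± 55.6), Itgb5 (152 ± 24.7), Itgbl1 (89.2 ± 9.65), Itga5 (46.4 ± 14.9), Itga11 (21.3 ± 6.12), Itgav (19.97 ± 5.60), Itgb3 (4.96 ± 0.920), Itga8 (3.32 ± 1.56), Itga1 (1.27 ± 0.216) and Itga4 (0.0137 ± 0.0129; SD, n = 5 libraries). Neighbours whose libraries overlapped in that order were Itgb1 with Itgb5, Itga5 with Itga11, Itga11 with Itgav, and Itgb3 with Itga8. The negative undamaged libraries had the same first 6 genes, but there Itga8 (14.3 ± 1.19) and Itga1 (2.74 ± 0.357) stood above Itgb3 (0.624 ± 0.610 CPM per kb; SD, n = 4). At day 28 the negative libraries had Itgb5 first (298 ± 48.2) and Itgb1 next (259 ± 16.7 CPM per kb; SD, n = 3), with overlapping libraries. In each of the 7 groups set in order, Itgb1 and Itgb5 had higher mean levels per length than every alpha chain.

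**Figure D1:**
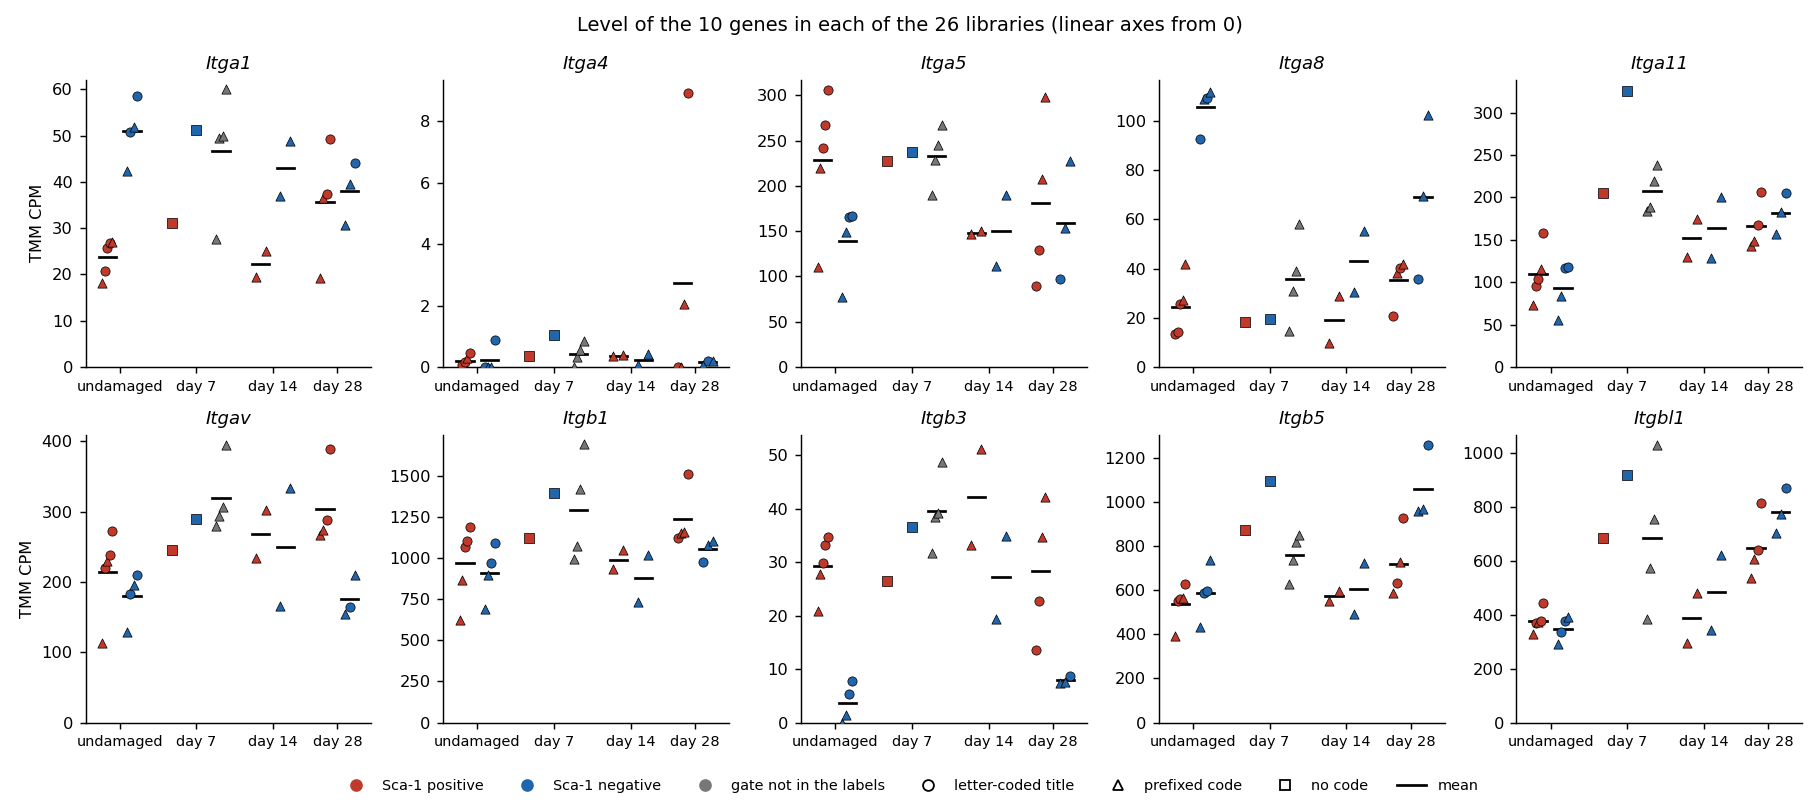
Each panel plots 1 gene, with TMM CPM on a linear axis from 0 and the times along the x axis. Points are libraries, coloured by gate and shaped by the kind of code in the title, and lines are group means. Itgb3 sits at 20.9 to 34.7 CPM in the positive and at 0 to 7.85 CPM in the negative undamaged libraries, and Itga8 shows the opposite order.

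In undamaged hearts 3 of the 10 genes separated Sca-1 positive from Sca-1 negative cells, against 3.1% of the 13812 genes tested in the fit of libraries with a gate. Itgb3 was higher, and Itga8 and Itga1 were lower, in the positive cells. The 7 other genes had differences of -0.226 to 0.705 on the log2 scale and did not pass the test.

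Itgb3, the beta chain of the vitronectin receptor alpha v beta 3 (GRCm38 chromosome 11, 104608000 to 104670476, plus strand), was at 29.8, 33.2, 34.7, 27.7 and 20.9 CPM in the positive undamaged libraries, and at 7.85, 5.42, 1.46 and 0 CPM in the negative ones. Every positive library was above every negative one, and the negative library B7 had no count of the gene. The difference was 2.98 ± 0.62 on the log2 scale, which is 7.9-fold, with an adjusted p of 0.00944 (edgeR). With the codes in the titles as a block the difference was 4.10, with an adjusted p of 0.00312 by edgeR. Only codes held by both gates (F3, A6 and B7 in undamaged hearts) bear on the gate difference in that fit. Within the prefixed libraries the difference was 5.21 (adjusted p = 0.0123, edgeR) against 2.29 within the letter-coded ones (adjusted p = 0.0013, edgeR). Letter-coded titles end in a bare code such as E1, while prefixed titles have numbers before it. These numbers differ between undamaged, day 14 and day 28 titles, so time and prefix cannot be told apart within the prefixed libraries. The size of the difference moved with the negative libraries: it was 3.67 without E5 (adjusted p = 0.00525, edgeR), and 2.23 without the 3 undamaged libraries that had the fewest genes with a count (A6 and B7 of the negative gate, B7 of the positive gate; adjusted p = 0.00659, edgeR), a choice made after the data were seen.

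Itga8, the alpha chain of the nephronectin receptor (chromosome 2, 12106632 to 12301922, minus strand), was at 14.4, 13.5, 25.5, 41.8 and 27.1 CPM in the positive libraries, and at 92.6, 109, 112 and 109 CPM in the negative ones. The groups did not overlap, and the highest positive library was below 50 CPM while the lowest negative one was above 90 CPM. The difference was -2.12 ± 0.36 (4.34-fold lower, adjusted p = 0.00182, edgeR). Itga1, the alpha chain of a collagen receptor (chromosome 13, 114953096 to 115101964, minus strand), was at 25.7, 20.8, 26.7, 27.1 and 18.1 CPM in the positive libraries, and at 58.6, 50.8, 51.9 and 42.4 CPM in the negative ones. It too had no overlap, and its difference was -1.11 ± 0.21 (2.16-fold lower, adjusted p = 0.0041, edgeR). Within the prefixed libraries alone, with 2 of each gate, the differences were -1.69 for Itga8 (adjusted p = 0.102, edgeR) and -1.07 for Itga1 (adjusted p = 0.153, edgeR).

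Itga5, the alpha chain of the fibronectin receptor (chromosome 15, 103344286 to 103366763, minus strand), was at 242, 306, 267, 219 and 111 CPM in the positive undamaged libraries, and at 165, 167, 149 and 77.4 CPM in the negative ones. The B7 libraries were lowest in both gates, and the groups overlapped through them. The difference was 0.71 ± 0.35 (adjusted p = 0.327, edgeR). With the codes as a block, where F3, A6 and B7 alone bear on the gates, it was 0.58 and passed the test, with an adjusted p of 0.0464 by edgeR.

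Markers of mural cells (pericytes and smooth muscle, 8 genes) moved with the gate as well. They summed to 95.2 to 145 CPM in the positive and 251 to 527 CPM in the negative undamaged libraries, with Notch3 at 25.6 to 42.7 CPM in the positive and 88.3 to 219 CPM in the negative ones, and none of the 8 was at 0 in either group. Their part in the differences of Itga8 and Itga1 was not tested. The platelet markers, 7 genes with Itga2b as the partner chain of Itgb3 in platelets, summed to 6.80 to 12.3 CPM in the positive undamaged libraries and 3.65 to 10.2 CPM in the negative ones. Itga2b itself was at 0.528 to 4.28 CPM in all 9 undamaged libraries, below Itgb3 in every positive one. In the negative ones Itga2b was above Itgb3 in A6 (2.51 against 1.46 CPM) and B7 (3.24 against 0 CPM), and below it in E5 and F3. A part of platelets in the Itgb3 difference was not tested.

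Among the other genes of the pathway, 2 of 14 tested other integrin subunits were lower and 0 higher in positive undamaged cells. These were Itga10, the alpha chain of another collagen receptor (-1.91 ± 0.36, adjusted p = 0.00468, edgeR), and Itga7, the alpha chain of a laminin receptor (-1.88 ± 0.46, adjusted p = 0.0277, edgeR). Of 29 focal adhesion and activation genes, 2 were higher and 0 lower, with Lims2, an adaptor of integrin-linked kinase, first by p (1.16 ± 0.17, adjusted p = 0.000475, edgeR). Of 24 ligand genes, 3 were higher and 1 lower. The higher ones were Nov (2.56 ± 0.47, adjusted p = 0.00369, edgeR), Fn1, the fibronectin gene (2.37 ± 0.44, adjusted p = 0.0041, edgeR), and Fbn1, the fibrillin-1 gene (1.02 ± 0.26, adjusted p = 0.0363, edgeR). Vtn, the gene of vitronectin, was lower (-3.12 ± 0.79, adjusted p = 0.0326, edgeR). None of 13 genes of latent TGF-beta and its activation passed the test. The median differences of these 4 lists were -0.401, 0.0542, -0.36 and 0.11, in the order given, against 0.0946 for the 10 integrin genes and 0.00642 over all genes tested.

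After ligation the same contrast of gates gave 0 of the 10 genes at day 14, where 0.0507% of all genes passed (7 genes), and 0 of the 10 at day 28, where 0.594% did. By DESeq2 the count of the 10 was also 0 at both times. At an unadjusted p under 0.05, 2 of the 10 were counted at day 14, against 257 of all 13812 genes, and 5 at day 28, against 2027 of all 13812. At day 14, with 2 libraries of each gate, Itga1 was at 19.4 and 25.1 CPM in the positive and at 48.9 and 37.0 CPM in the negative libraries, without overlap (-0.94 ± 0.31, adjusted p = 1, edgeR). Itga8 was at 9.55 and 29.0 CPM in the positive libraries, and at 30.6 and 55.5 CPM in the negative ones, also without overlap (-1.14 ± 0.54, adjusted p = 1, edgeR). With the codes D1 and D9 as a block the Itga8 difference was -1.28, with an adjusted p of 0.0391 by edgeR. Itgb3 was at 33.1 and 51.2 CPM in the positive day 14 libraries, and at 34.9 and 19.4 CPM in the negative ones, so that the groups overlapped (0.65 ± 0.80, adjusted p = 1, edgeR).

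At day 28 Itgb3, Itgav and Itgb5 did not overlap between the gates, with Itgb5 in the other direction, and none passed the adjusted threshold. The share of all genes without overlap was not counted here or in the other comparisons, so such separations have no background. Itgb3 was at 13.6, 22.7, 34.6 and 42.2 CPM in the positive libraries, and at 8.74, 7.44 and 7.52 CPM in the negative ones, with no overlap (1.84 ± 0.67, adjusted p = 0.202, edgeR). The positive library B6, highest in Itgb3, also had 25.9 CPM of Itga2b, against 1.27 to 2.05 CPM in the other positive day 28 libraries. The 7 platelet markers summed to 31.0 CPM in B6, most of it Itga2b. Gp9 and Treml1 had no count in any positive day 28 library, and a part of platelets was not tested. Itgav, the alpha v chain (chromosome 2, 83724397 to 83806916, plus strand), was at 389, 287, 267 and 273 CPM in the positive libraries, and at 164, 154 and 209.6 CPM in the negative ones (0.78 ± 0.27, adjusted p = 0.19, edgeR). Itgb5, the beta chain of another vitronectin receptor (chromosome 16, 33829665 to 33949338, plus strand), was lower, at 631, 929, 726 and 588 CPM in the positive against 1258, 957 and 966 CPM in the negative libraries (-0.57 ± 0.22, adjusted p = 0.224, edgeR). Both had no overlap between the gates, as had Itgb1 (chromosome 8, 128685654 to 128733200, plus strand). Itgb1 was at 1125 to 1516 CPM in the positive and 977 to 1105 CPM in the negative libraries, with a difference no larger than its standard error (0.22 ± 0.22, adjusted p = 0.688, edgeR). Library E2 was the highest of the positive ones in Itgav and Itgb1 and the lowest in Itgb3, and without it the differences were 0.64 for Itgav (adjusted p = 0.533, edgeR), 0.11 for Itgb1 (adjusted p = 0.967, edgeR), 2.07 for Itgb3 (adjusted p = 0.319, edgeR) and -0.51 for Itgb5 (adjusted p = 0.556, edgeR). Itga8 overlapped, with 20.6 to 42.0 CPM in the positive and 35.8 to 102 CPM in the negative libraries (-0.99 ± 0.40, adjusted p = 0.263, edgeR). Mural markers summed to 65.3 to 197 CPM in the positive and 149 to 250 CPM in the negative day 28 libraries, and their part was not tested.

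**Figure D2:**
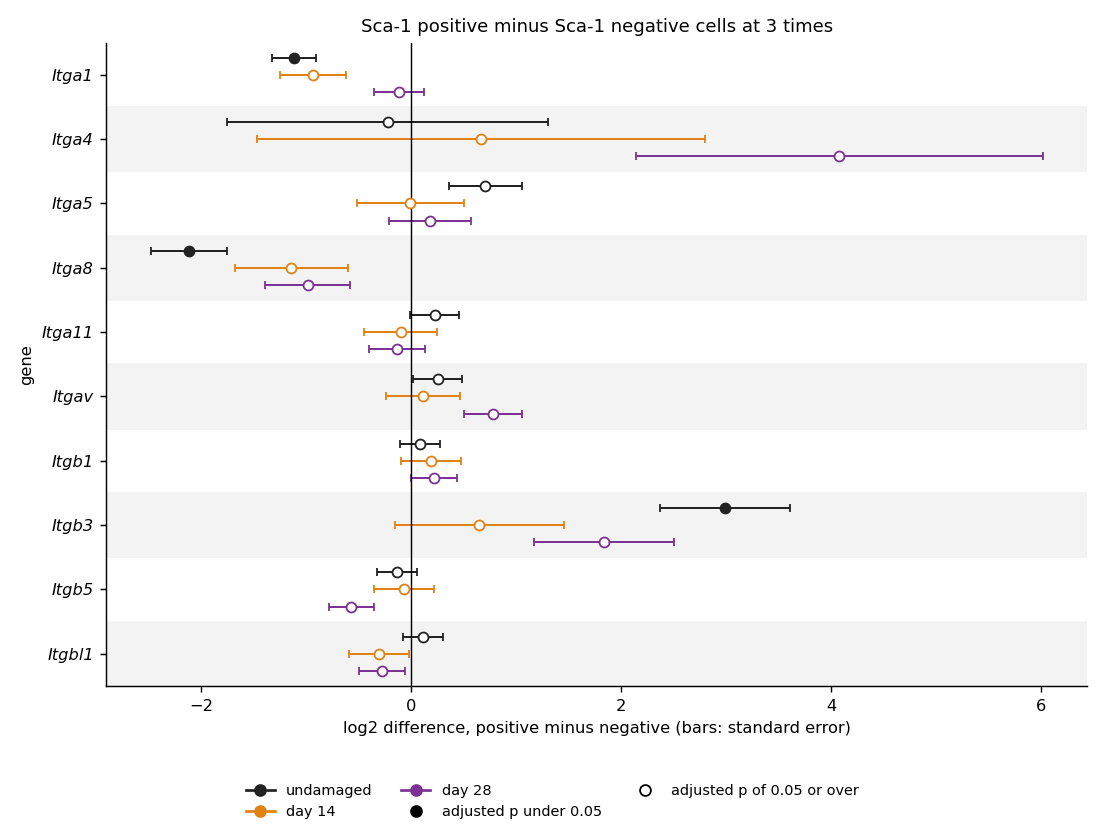
The plot gives the log2 difference, Sca-1 positive minus Sca-1 negative, for each gene at 3 times, with standard errors from edgeR as bars and filled points where the adjusted p is under 0.05. Only Itgb3, Itga8 and Itga1 in undamaged hearts are filled, and the Itga4 bars are wide because its counts are near 0.

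Whether the gate difference after ligation differed from that in undamaged hearts was tested as an interaction. It passed for 0 of the 10 genes and 0% of all genes at day 14 (202 at an unadjusted p under 0.05 by edgeR, and 2 by DESeq2 after adjustment), and for 0 of the 10 and 0% of all genes at day 28 (719 and 4). The largest interaction among the called gate genes was that of Itgb3 at day 14 (-2.34 ± 1.00, unadjusted p = 0.0307, adjusted p = 1, edgeR). At day 28 Itga1 had 1.00 ± 0.32 (unadjusted p = 0.0055, adjusted p = 0.907, edgeR), and its levels were 49.3, 37.3, 19.2 and 36.6 CPM in the positive against 44.1, 39.6 and 30.6 CPM in the negative libraries. A difference between times in the gate contrast was thus not shown for any of the 10 genes.

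Ratios within a library do not depend on its scaling. Itgb3 gave 4.75 to 6.32 counts per 100 Itgb5 counts in the positive undamaged libraries and 0 to 1.34 in the negative ones. At day 14 the ratio was 5.56 and 9.27 in the positive libraries, and 4.84 and 3.95 in the negative ones. At day 28 it was 2.15 to 7.18 in the positive and 0.695 to 0.778 in the negative libraries, and the letter-coded positive libraries E2 and F2 gave the lowest of the positive values. The 6 day 7 libraries, the labelled positive (3.03) and negative one (3.35) among them, lay between 3.03 and 6.12. Itga8 gave 1.21 to 4.80 counts per 100 Itgb1 counts in the positive and 8.49 to 15.8 in the negative undamaged libraries, and 1.40 to 4.11 over the 6 day 7 libraries. At day 7 that ratio was 1.63 in the labelled positive and 1.40 in the labelled negative library, 1.83 in 1A, 4.11 in 1B, 1.45 in 4A and 3.63 in 4B. Itga1 was at 31.0 CPM in the labelled positive and 51.3 CPM in the labelled negative library, 49.4 CPM in 1A, 60.0 CPM in 1B, 27.7 CPM in 4A and 50.03 CPM in 4B. With 1 labelled library of each gate, the gates were not compared at day 7, and these values do not show whether the difference seen in undamaged hearts was present then.

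**Figure D3:**
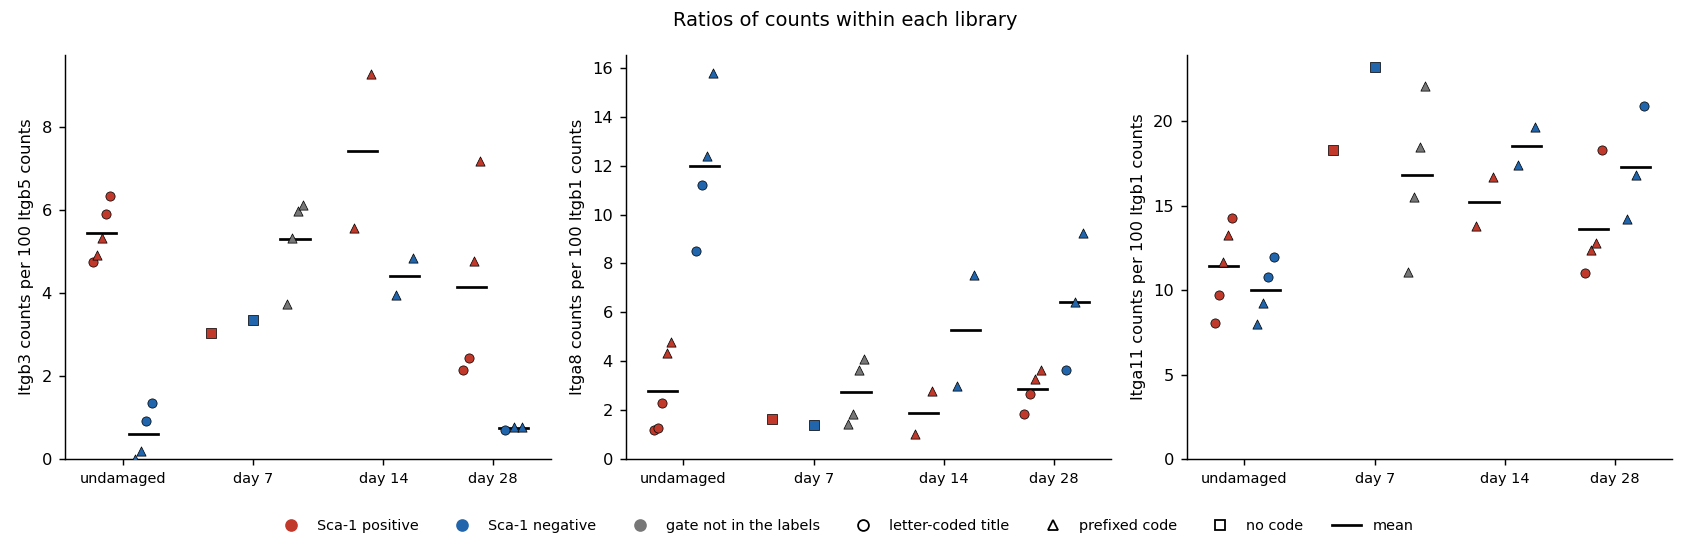
The 3 panels plot counts of 1 gene per 100 counts of another in the same library on linear axes from 0, by time and gate, with group means as lines. The negative libraries are low in Itgb3 per Itgb5 when undamaged and at day 28 (0 to 1.34), but not at day 14 (3.95 and 4.84).

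At day 7 after ligation 5 of the 10 genes were higher than in undamaged hearts and 0 were lower, against 22.8% of the 13392 genes tested over both gates (1545 higher and 1503 lower). That fit had no term for gate or code, so libraries of both gates under 1 code counted as separate replicates. No fit with the codes as a block was run for day 7. In the 20 libraries of the gated fit, the correlation within codes was 0.393 by limma-voom, so the day 7 p may be too small. The collagen receptor chain Itga11 and the secreted Itgbl1 had the largest differences that passed the test, followed by Itgav, Itgb5 and Itgb1. The median over the 10 genes was 0.585 on the log2 scale, against -0.0363 over all genes tested.

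Itga11, the alpha chain of a receptor for fibrillar collagen (chromosome 9, 62677826 to 62783982, plus strand), was at 184 to 325 CPM with a median of 213 in the 6 day 7 libraries, and at 55.2 to 158 CPM with a median of 104 in the 9 undamaged ones. All day 7 libraries were above all undamaged ones, and the negative library was the highest of them. The difference was 1.15 ± 0.17 (2.22-fold higher, adjusted p = 1.96e-05, edgeR). Itgbl1 (chromosome 14, 123659971 to 123975618, plus strand) was at 383 to 1027 CPM with a median of 719 at day 7, and at 289.8 to 442 CPM with a median of 371 in undamaged hearts. The day 7 library 4A, at 383 CPM, lay within the undamaged range, and the 5 others lay above it. Its difference was 0.99 ± 0.17 (1.99-fold higher, adjusted p = 0.000149, edgeR).

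Itgb5 was at 628 to 1092 CPM with a median of 834 at day 7, and at 391.6 to 736 CPM with a median of 563 in undamaged hearts. The ranges overlapped, and the difference was 0.57 ± 0.16 (1.49-fold higher, adjusted p = 0.0104, edgeR). Itgav was at 245 to 394 CPM with a median of 292 at day 7, and at 113 to 272 CPM with a median of 210.0 in undamaged hearts (0.60 ± 0.20, adjusted p = 0.0278, edgeR). Itgb1 was at 994 to 1696 CPM with a median of 1262 at day 7, and at 623 to 1189 CPM with a median of 972 in undamaged hearts (0.44 ± 0.15, adjusted p = 0.0306, edgeR). The day 7 library 1A was the highest in both Itgav and Itgb1, and without it the differences were 0.51 (adjusted p = 0.0797, edgeR) and 0.34 (adjusted p = 0.105, edgeR). Itgb1 also missed the threshold without the negative day 7 library (0.42, adjusted p = 0.0672, edgeR) and without 1B (0.41, adjusted p = 0.07, edgeR).

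Without the same 3 undamaged libraries with the fewest genes, Itgav had 0.43 (adjusted p = 0.108, edgeR) and Itgb1 0.30 (adjusted p = 0.112, edgeR). Itga11, Itgbl1 and Itgb5 still passed in that fit. Within the prefixed libraries alone Itgb5 had 0.50 (adjusted p = 0.101, edgeR).

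The remaining 5 genes did not pass at day 7. Itga8 was at 14.4 to 58.3 CPM with a median of 25.3 at day 7, and at 13.5 to 112 CPM with a median of 41.8 in undamaged hearts (-1.01 ± 0.48, adjusted p = 0.134, edgeR). Itgb3 was at 26.4 to 48.8 CPM at day 7, and at 0 to 34.7 CPM in undamaged hearts (1.04 ± 0.58, adjusted p = 0.208, edgeR). For these 2 genes the undamaged range holds both gates, which stood apart there. Itga5 was at 189.7 to 268 CPM at day 7 and at 77.4 to 306 CPM in undamaged hearts, and Itga1 at 27.7 to 60.0 CPM at day 7 and at 18.1 to 58.6 CPM in undamaged hearts. Itga4, the alpha chain of the VCAM-1 receptor (chromosome 2, 79255426 to 79333123, plus strand), was at 0 to 1.05 CPM at day 7 and 0 to 0.887 CPM in undamaged hearts.

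**Figure D4:**
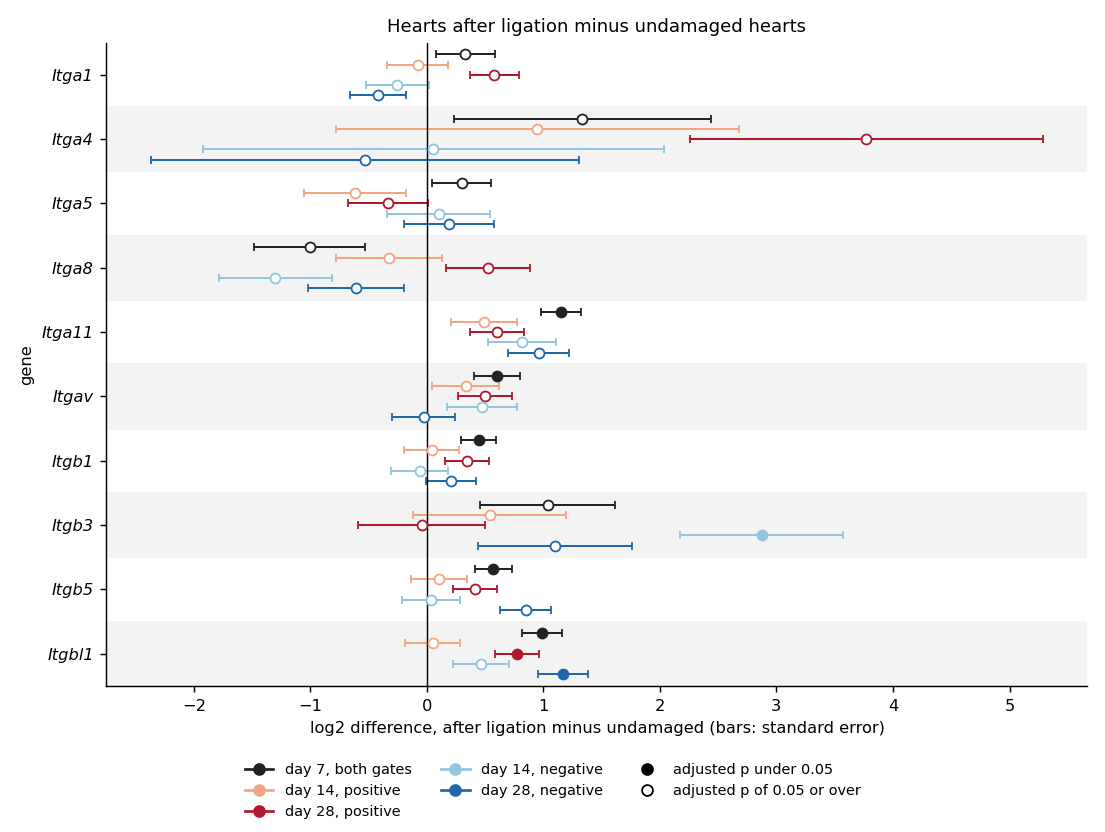
The plot gives the log2 difference of hearts after ligation minus undamaged hearts for each gene, at day 7 over both gates and at days 14 and 28 within each gate, with standard errors from edgeR as bars and filled points where the adjusted p is under 0.05. The 5 filled day 7 points lie between 0.44 and 1.15, and Itgb3 in the negative cells of day 14 lies at 2.87.

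Markers of the epicardium and mesothelium (6 genes) moved with time: they summed to 0 to 8.91 CPM in undamaged libraries, 7.79 to 89.8 CPM at day 7, 26.6 to 212 CPM at day 14 and 11.1 to 113 CPM at day 28. Endothelial markers were at 189 to 329.5 CPM in undamaged libraries, 104 to 178 CPM at day 7, 141 to 227 CPM at day 14 and 157 to 264 CPM at day 28. Leukocyte markers summed to 7.46 to 30.0 CPM in undamaged libraries, 21.3 to 45.4 CPM at day 7, 10.5 to 24.0 CPM at day 14 and 7.95 to 25.1 CPM at day 28, with Cd3e at 0 in every undamaged, day 7 and day 28 library. Mural markers in negative cells summed to 250.6 to 526.7 CPM in undamaged libraries, 149.5 to 181 CPM at day 14 and 149 to 250 CPM at day 28. In positive cells they summed to 95.2 to 145 CPM, 84.7 to 109.3 CPM and 65.3 to 196.7 CPM. Over the 6 day 7 libraries the sum was 115.7 to 245 CPM. The part of all these markers in the differences of the integrin genes was not tested.

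Genes that integrins bind and act through were counted in the same comparison at day 7. Of 24 ligand genes 13 were higher and 0 lower, among them Col3a1 (2.62 ± 0.15, adjusted p = 1.34e-12, edgeR), Col1a1 (2.94 ± 0.19, adjusted p = 1.28e-11, edgeR) and Col1a2 (2.59 ± 0.17, adjusted p = 1.35e-11, edgeR), which encode the chains of fibrillar collagens. Of 29 focal adhesion and activation genes 8 were higher and 2 lower, with the actin cross-linker Actn1 (2.37 ± 0.18, adjusted p = 1.45e-10, edgeR), the tensin Tns3 (1.14 ± 0.16, adjusted p = 6.43e-06, edgeR) and the talin Tln2 (0.95 ± 0.15, adjusted p = 3.03e-05, edgeR) first by p. Of 13 genes of latent TGF-beta 3 were higher and 2 lower, with Tgfb3 (1.87 ± 0.18, adjusted p = 2.27e-08, edgeR) and the latent TGF-beta binding proteins Ltbp2 (3.42 ± 0.36, adjusted p = 9.62e-08, edgeR) and Ltbp3 (0.82 ± 0.17, adjusted p = 0.000716, edgeR) first. Of 13 other integrin subunits Itgb2, the beta chain of leukocyte integrins, was higher (1.33 ± 0.48, adjusted p = 0.0438, edgeR) and Itga6, an alpha chain of laminin receptors, was lower (-1.22 ± 0.29, adjusted p = 0.0027, edgeR). The medians were 0.918 for the ligands, 0.07 for the focal adhesion list, -0.0427 for the TGF-beta list and 0.342 for the other subunits.

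The promoters of Itga11, Itgbl1 and Itgb5, the 3 genes with the smallest p at day 7, are shown because these genes rose together, each as the 250 bases before the RefSeq start, on the gene's strand (all plus), from GRCm38.p6. Capitals mark each match to the letters searched on both strands: TGANTCA (AP-1), GGAATG (TEAD), GTCTGNC (SMAD), GGGCGG (GC box) and CAGGTG (an E box).
Itga11, chr9:62677605-62677854: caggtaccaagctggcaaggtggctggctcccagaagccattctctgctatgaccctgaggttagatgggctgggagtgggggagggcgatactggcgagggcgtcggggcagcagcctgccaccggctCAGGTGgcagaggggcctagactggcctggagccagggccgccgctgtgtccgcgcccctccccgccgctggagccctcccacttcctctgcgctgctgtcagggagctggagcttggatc
Itgbl1, chr14:123659890-123660139: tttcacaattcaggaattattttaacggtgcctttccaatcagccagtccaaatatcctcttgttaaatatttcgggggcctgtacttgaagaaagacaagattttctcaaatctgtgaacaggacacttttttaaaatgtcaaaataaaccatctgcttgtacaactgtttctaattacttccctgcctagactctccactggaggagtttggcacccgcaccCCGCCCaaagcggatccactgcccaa
Itgb5, chr16:33829415-33829664: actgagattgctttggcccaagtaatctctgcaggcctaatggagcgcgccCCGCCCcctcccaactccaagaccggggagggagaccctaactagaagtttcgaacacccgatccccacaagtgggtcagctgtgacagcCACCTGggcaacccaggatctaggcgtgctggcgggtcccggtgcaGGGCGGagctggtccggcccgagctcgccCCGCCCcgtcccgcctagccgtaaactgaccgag

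Over the 9 of the 10 genes with an entry in the RefSeq table, which held 32536 promoter windows, 0 had the AP-1 letters (6.73% of all windows), 1 the TEAD letters (12.6%), 2 the SMAD letters (12.5%), 5 the GC box (33.0%) and 2 the E box (17.3%). Of the 3 windows shown, Itga11 had 1 E box, Itgbl1 had 1 GC box, and Itgb5 had 3 GC boxes and 1 E box, and no letters searched were held by all 3. The windows also differed in base composition, with 68.4% G and C for Itga11, 42.4% for Itgbl1 and 65.2% for Itgb5. A match is a description of letters and not of a bound site.

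At day 14, within the gates, 1 of the 10 genes passed against undamaged hearts, in the negative cells; the gates' difference in that change is the Itgb3 interaction above, which did not pass. In the negative cells 4.04% of all genes passed, and Itgb3 was at 34.9 and 19.4 CPM at day 14 against 7.85, 5.42, 1.46 and 0 CPM in undamaged hearts, with no overlap (2.87 ± 0.70, 7.33-fold higher, adjusted p = 0.0233, edgeR). Without the day 14 library D1 it was 2.38 (adjusted p = 0.286, edgeR), and without the undamaged library A6 it was 2.62 (adjusted p = 0.0619, edgeR). It was 3.56 without the undamaged library E5 (adjusted p = 0.0117, edgeR), 5.37 within the prefixed libraries (adjusted p = 0.00653, edgeR), 4.51 with the codes as a random block (adjusted p = 0.0146, limma-voom) and 2.05 without the 3 undamaged libraries with the fewest genes (adjusted p = 0.0119, edgeR). In the positive cells 1.85% of all genes and 0 of the 10 passed (0 also by DESeq2 and 0 at an unadjusted p under 0.05), and Itgb3 was at 33.1 and 51.2 CPM at day 14 against 20.9 to 34.7 CPM in undamaged hearts (0.54 ± 0.65, adjusted p = 0.968, edgeR). Itga8 in the negative cells was at 30.6 and 55.5 CPM at day 14, below all 4 undamaged libraries at 92.6 to 112 CPM, without passing the test (-1.30 ± 0.48, adjusted p = 0.173, edgeR). Itga11 in the negative cells was at 201 and 128 CPM at day 14, above the 55.2 to 118 CPM of undamaged hearts, likewise without passing (0.81 ± 0.29, adjusted p = 0.153, edgeR). Within the prefixed libraries, its difference was 1.24 and passed (adjusted p = 0.0467, edgeR). Both day 14 and day 28 were set against the same undamaged libraries.

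At day 28 Itgbl1 was the gene of the 10 that passed against undamaged hearts, in both gates. In the positive cells it was at 813, 638, 607 and 534 CPM at day 28, and at 442, 375, 369, 329 and 371 CPM in undamaged hearts, without overlap (0.78 ± 0.19, 1.71-fold higher, adjusted p = 0.0473, edgeR), where 1.27% of all genes passed. That call lay at the threshold: leaving out any 1 of the 9 libraries gave 0.66 to 0.86 with adjusted p of 0.0573 to 0.154 (edgeR), and without the library E2 it was 0.66 (adjusted p = 0.154, edgeR). In the negative cells it was at 868, 701 and 772 CPM at day 28, and at 376, 334, 391 and 289.8 CPM in undamaged hearts (1.16 ± 0.22, 2.24-fold higher, adjusted p = 0.0101, edgeR), where 1.06% of all genes passed. Without the day 28 library E4 it was 1.08 (adjusted p = 0.0507, edgeR).

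Itgb5 and Itga11 in the negative cells had day 28 libraries above all undamaged ones. Itgb5 was at 1258, 957 and 966 CPM at day 28, and at 588, 597, 736 and 433 CPM in undamaged hearts (0.85 ± 0.22, adjusted p = 0.0691, edgeR). Itga11 was at 205, 157 and 182 CPM at day 28, and at 118, 116, 83.3 and 55.2 CPM in undamaged hearts (0.96 ± 0.26, adjusted p = 0.091, edgeR). Both passed by DESeq2, with adjusted p of 0.00666 for Itgb5 and 0.0223 for Itga11. With the codes as a random block in limma-voom the adjusted p were 0.0491 for Itgb5 and 0.0403 for Itga11. Fibrillar collagen and TGF-beta genes of the fixed lists were also above undamaged hearts then, with Col3a1 at 1.22 ± 0.19 in the positive cells (adjusted p = 0.00258, edgeR) and 1.18 ± 0.22 in the negative cells (adjusted p = 0.0106, edgeR). Over the lists, 3 of 24 ligand genes were higher in the positive and 5 of 24 in the negative cells, 2 of 29 and 1 of 29 focal adhesion genes, and 2 of 13 TGF-beta genes in each gate, with 0 lower in any of these lists. At day 14 these counts were 6 of 24 ligand genes in the positive and 8 of 24 in the negative cells, 2 of 29 and 4 of 29 focal adhesion genes, and 1 of 13 and 2 of 13 TGF-beta genes, again with 0 lower.

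The 2 kinds of title code disagreed on Itga5 and Itgb3 in the positive cells at day 28. Letter-coded libraries had Itga5 at 89.2 and 129 CPM at day 28 against 242, 306 and 267 CPM in undamaged hearts (-1.34, adjusted p = 0.00293, edgeR). Prefixed libraries had it at 298 and 207 CPM at day 28 against 219 and 111 CPM in undamaged hearts (0.62, adjusted p = 0.545, edgeR). For Itgb3 the letter-coded libraries were at 13.6 and 22.7 CPM at day 28 against 29.8, 33.2 and 34.7 CPM in undamaged hearts (-0.85, adjusted p = 0.0435, edgeR). The prefixed ones were at 34.6 and 42.2 CPM at day 28 against 27.7 and 20.9 CPM in undamaged hearts (0.67, adjusted p = 0.687, edgeR). Over both kinds the differences were -0.34 ± 0.34 for Itga5 and -0.04 ± 0.54 for Itgb3, so these pooled values hold opposite directions. Library E2 was the lower of the 2 letter-coded day 28 libraries in both genes. Without it, with F2 as the lone day 28 library assumed to vary like the others, the letter-coded difference was -1.09 for Itga5 (adjusted p = 0.00491, edgeR) and -0.54 for Itgb3 (adjusted p = 0.151, edgeR), a choice made after the data were seen. The difference of Itga1 in the same contrast was 0.79 within the letter-coded libraries (adjusted p = 0.0223, edgeR), or 0.60 without E2. Over both kinds it was 0.58 ± 0.21 (adjusted p = 0.211, edgeR). Leaving out 1 library gave 0.39 to 0.78, and 1 of these 9 fits passed. That was the fit without the day 28 library B4 (0.78, adjusted p = 0.0336, edgeR). Without E2, the highest positive day 28 library in Itga1 at 49.35 CPM, the difference was 0.39 (adjusted p = 0.652, edgeR). Itgbl1 was higher within each kind (0.85 letter-coded, adjusted p = 0.0125, and 0.71 prefixed, adjusted p = 0.36, edgeR). What the codes stand for is not given in the labels, and the prefixes differ between the times.

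**Figure D5:**
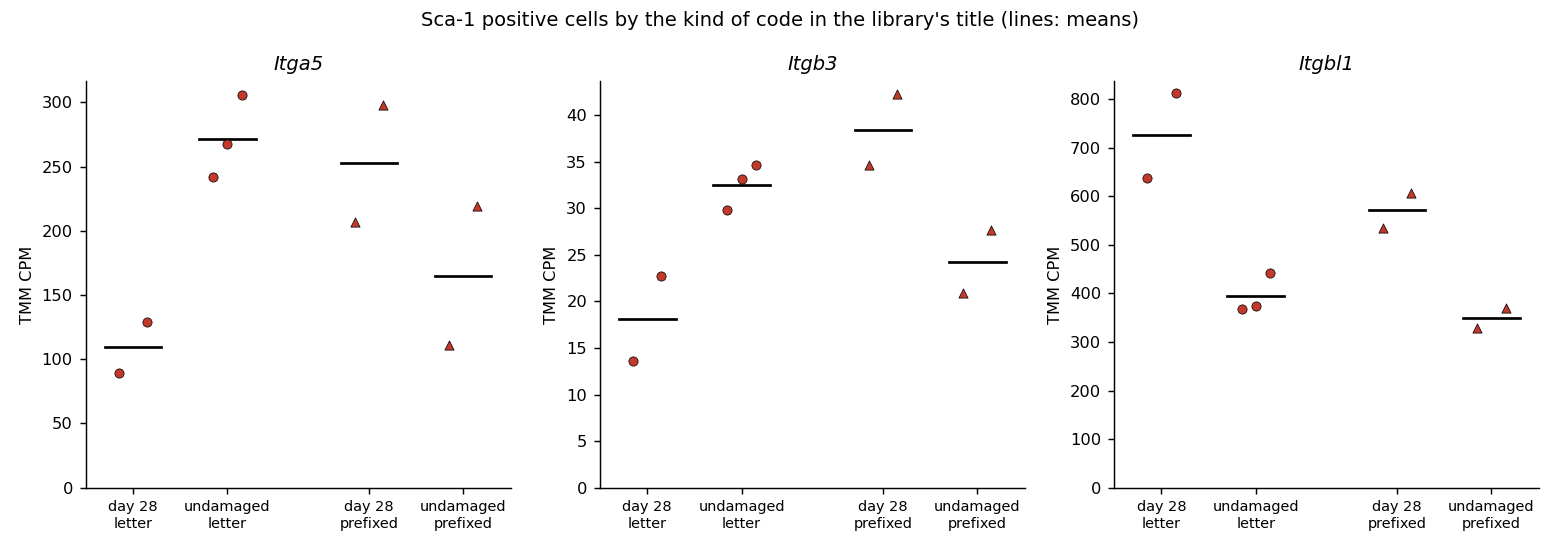
The 3 panels plot TMM CPM of Sca-1 positive libraries on linear axes from 0, with day 28 left of undamaged hearts within each kind of title code, and lines as means. Itga5 and Itgb3 are lower at day 28 in the letter-coded libraries and higher in the prefixed ones, while Itgbl1 is higher at day 28 in both.

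Between the later times and day 7, over both gates, none of the 10 genes passed. At day 14 against day 7 the background was 0.0149% of all genes (2 genes), and 4 of the 10 were counted at an unadjusted p under 0.05, against 1217 of all 13392 genes. Itgbl1 had the smallest p, at 294 to 622 CPM in the 4 day 14 libraries against 383 to 1027 CPM at day 7 (-0.73 ± 0.22, adjusted p = 0.194, edgeR). Itga5 was at 111 to 189.5 CPM at day 14, only just below the lowest of the 6 day 7 libraries at 189.7 to 268 CPM (-0.64 ± 0.32, adjusted p = 0.557, edgeR). At day 28 against day 7 the background was 11.6%, and 1 of the 10 was counted at an unadjusted p under 0.05, against 3517 of all 13392 genes. It was Itga11 (143 to 206 CPM at day 28 against 184 to 325 CPM at day 7; -0.39 ± 0.18, adjusted p = 0.171, edgeR). Itgbl1 at day 28, 534 to 868 CPM, lay within the day 7 range (-0.04 ± 0.19, adjusted p = 0.932, edgeR). By DESeq2 too, 0 of the 10 passed in either comparison. Of the 24 ligand genes, by contrast, 10 were lower and 1 higher at day 28 than at day 7, with Col1a1 at -1.91 ± 0.20 (adjusted p = 1.24e-06, edgeR).

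Itga4 was close to the floor throughout. It was at 0 to 1.05 CPM in 24 of the 26 libraries, and at 8.91 CPM in the day 28 positive library E2 and 2.07 CPM in the day 28 positive library B6. The other positive day 28 libraries, F2 and B4, had no count. Cerkl, which lies antisense to it, overlaps 8.04% of its exon bases and had 1153 counts in all, and the strand setting of the counting is not given, so reads of this pair cannot be told apart.

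Genes whose log2 CPM followed each of the 10 most closely over the 26 libraries were listed by Pearson's r among 8851 genes (8852 for Itga4), as a description in which libraries share gates, times and depth. For Itga11 they were Tenm3 (0.913), Klhl29 (0.911) and Acvr1 (0.901), and for Itgbl1 they were Comp (0.849), Slc7a2 (0.831) and Loxl3 (0.822). For Itga8 they were Gng2 (0.892), Pygm (0.857) and Tnik (0.835), and for Itgb3 St6gal1 (0.919), Setd8 (0.901) and Prrx2 (0.899). Itga5 was most like Tgfb1 (0.877), Itgav most like Trps1 (0.918), Itgb1 most like Ncl (0.9), Itgb5 most like Myo1d (0.86), Itga1 most like Stard8 (0.81) and Itga4 most like D15Ertd621e (0.727). Among the 10 genes themselves the highest r were those of Itgav with Itgb1 (0.804), Itgb5 with Itgbl1 (0.796) and Itga11 with Itgb5 (0.736), and the lowest was that of Itga8 with Itgb3 (-0.665).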

How the data were processed

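The deposited values were raw counts, whole numbers of reads per gene symbol, in 1 table per library. The RNA was turned into stranded mRNA libraries and read as paired ends, per the labels' protocols. Per the submitters' processing notes bcl2fastq, TopHat, Bowtie2, STAR and Cufflinks were used with mm10; no versions are listed, and the counting program and its strand setting are not given in the sources used here. The 2 entries that name no gene were left out of totals: reads outside genes were 5.53% to 55.8% and shared reads 0.128% to 0.646% of a library. Positions came from GENCODE M21 (GRCm38, the build of mm10), where 23334 symbols (95.5%) matched once.

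Tests used R 4.3.3 with edgeR 4.0.16 (TMM, filterByExpr, quasi-likelihood, two-sided). A call is an adjusted p (Benjamini-Hochberg, all genes of a fit) under 0.05. A fit of 20 libraries in 6 groups (13812 genes) gave the gate comparisons and those with undamaged hearts at days 14 and 28, and its 2-library groups borrowed the spread of the others. A fit of 26 libraries at 4 times (13392 genes) gave the 3 comparisons with day 7. Both were tested on simulated data. DESeq2 1.42.0 and limma 3.58.1 were alternatives. Standard errors are the log2 difference over the root of F. Floors cover counting error only, since counts carry no molecular identifiers. No 2 libraries were identical.

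Codes shared by both gates were taken to pair libraries. Deviations from group means correlated at r = 0.184 to 0.412 over 13812 genes in each such pair. At day 14, with 2 libraries a gate, the 0.412 follows from the design. Letter-coded pairs with different codes reached similar r, such as 0.389 (F2 with E4, day 28) and 0.311 (E3 with E5, undamaged). Group means were taken over both kinds of code, so the letter-coded r also hold the difference between the kinds. Among prefixed libraries, pairs of the same code had r of 0.184 and 0.258 in undamaged hearts, and 0.337 and 0.284 at day 28. Prefixed pairs with different codes had 0.0601 and 0.0536, and 0.113 and 0.0565. The r was thus higher for shared codes among these few prefixed pairs. Among letter-coded libraries it does not show that a shared code marks a pair. All 10 genes were tested in every comparison, and the text gives values for some of them in each. Of the 4 lists, up to 3 called genes with the smallest p are named for the gates in undamaged hearts and for day 7, and mostly counts are given elsewhere; 1 gene that this rule would name is not reported here. The 10 genes, the lists and the markers were chosen with earlier results of these data known.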

Additional observations from a re-analysis of the deposited data

Results flagged for a closer look

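In 4 of 40 pairs of a gene and a group of 4 or 5 libraries, 1 library lay far from the rest by Dixon's criterion, which chance alone meets in about 1 of 20 groups. In the positive day 28 group of 4 libraries, library E2 was highest in Itgav (389 CPM, gap over range 0.832) and in Itgb1 (1516 CPM, gap over range 0.907). E2 had 55.8% of its counts outside genes. In the negative undamaged group of 4 libraries, library E5 was highest in Itga4 (0.887 CPM, with the 3 others at 0) and lowest in Itga8 (92.6 CPM, gap over range 0.857). The criterion for 4 libraries is 0.829, and no cause of these values was tested.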

How the results depend on the processing

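Of 120 pairs of a gene and a comparison, 21 passed the test in the reported fit or an alternative and 99 in none; of 1562 alternative values of these 99, 1467 kept the sign. Of the 193 recounts of genes called among the 10, 166 stayed within 1.5 times the reported count and 27 did not. Many of these recounts belong to comparisons with 0 reported calls, where another 0 counted as unchanged. The 166 thus does not measure how firmly the reported calls held. In undamaged hearts the gates gave 3 calls and 1 within the prefixed libraries, and at day 14 the replicate block gave 1 call against 0. With the block, 4 calls were made in undamaged hearts and 0 at day 28, and it changed no other gate call. For day 28 against undamaged positive cells (1 call) there were 0 without the low-count filter, 0 in prefixed libraries, 4 in letter-coded libraries, 3 in letter-coded libraries without the day 28 library E2 (Itga5, Itgbl1 and Itgb5, the last at 0.67 with an adjusted p of 0.0214 by edgeR), 0 when the 3 undamaged libraries lowest in detected genes were dropped, and 0 to 1 leaving out 1 library. There Itga5 turned to 0.62 in prefixed libraries, and Itgb3 to 0.67 in them and to 0.11 with the kind of code as a term, and ranged from -0.30 to 0.19 leaving out 1 library. For day 14 against undamaged negative cells (1 call) there were 2 in prefixed libraries and 0 to 1 leaving out 1. For day 28 against undamaged negative cells (1 call) there were 3 by DESeq2, 2 in prefixed libraries, 2 in letter-coded libraries, 3 with the kind of code as a term, 3 with the codes as a random replicate block in limma-voom, and 0 to 1 leaving out 1. In prefixed libraries that comparison gave Itgb3 3.52 (adjusted p = 0.0355, edgeR) and Itgbl1 1.11 (adjusted p = 0.0748, edgeR). For day 7 against undamaged (5 calls) there were 3 in the 22 libraries with a gate, 3 when those 3 undamaged libraries were dropped, and 3 to 5 leaving out 1. The cause of these changes was not tested, and some of these fits also hold fewer libraries. Means of the 70 groups of a gene with 2 or more libraries moved by under 1 SD without TMM factors. Over all genes, the calls ranged over alternatives from 212 to 824 for the gates in undamaged hearts (428 reported), 0 to 60 at day 14 (7) and 18 to 416 at day 28 (82), from 83 to 520 (256) and 78 to 1905 (175) for positive cells at days 14 and 28, from 117 to 914 (558) and 62 to 594 (147) for negative cells, and from 1335 to 3456 for day 7 against undamaged (3048), 0 to 123 for day 14 against day 7 (2) and 535 to 1942 for day 28 against day 7 (1557). These ranges are not split by setting, so the counts of the 10 under single alternatives stand without a share of all genes. Depth limits Itga4, which was under 3 counts in some libraries.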
